A study of Mus musculus with 8 samples.

Results

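Broad H3K4me3 clusters without H3K27me3 are stretches of the genome of untreated macrophages that carried H3K4me3 over at least 6000 bp and touched no listed H3K27me3 position. They were found by chromatin immunoprecipitation followed by sequencing (ChIP-seq), which records where a protein or histone mark sits on DNA. From the H3K4me3 list of untreated cells, clusters of at least 6000 bp (end minus start plus 1) were kept when no H3K27me3 position at 0 or 4 h lay within 250 bp of them. The rule took 1196 of the 21418 clusters, or 5.58% of the clusters and 13.99% of the length that H3K4me3 covered. Per the labels, the cells were primary macrophages grown from the bone marrow of 6 to 8 week old females of the Fvb mouse strain. Untreated cells (0 h) were compared with cells that received LPS (lipopolysaccharide, part of the outer membrane of bacteria) together with the cytokine IFNγ, a pair that triggers an inflammatory response. H3K4me3 and H3K27me3 were mapped at 0 and 4 h, RNA polymerase II (Pol II) at 0, 2 and 4 h, and the H3K27 demethylase Jmjd3 at 2 h. Each combination was 1 library, and the sources used here do not say how many mice gave its cells.

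Trimethylation of lysine 4 of histone H3 marks promoters, usually over a narrow stretch around the start of transcription. Broad stretches of the mark are known from many cell types at highly transcribed genes and at genes tied to cell identity, where they extend into the transcribed part. H3K27me3 is the repressive mark laid down by Polycomb complexes, and Jmjd3 (Kdm6b), which macrophages induce on stimulation, removes it. Pol II is the enzyme that transcribes protein-coding genes.

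The files list Jmjd3 and Pol II as positions and H3K4me3 as clusters, each with the overlap count of sequenced fragments at its highest point, which the authors gave without scaling. Since each of the 8 groups holds 1 library, no difference has a replicate check and p-values are not given. Bracketed ranges beside a percentage are 95% Clopper-Pearson intervals. All intervals cover counting error over clusters only, and neighbouring clusters are not independent. The lists began at different lowest overlap counts (9, 10 and 11 for Pol II at 0, 2 and 4 h), and exact depth is unknown beyond over 10000000 uniquely mapped tags per library, per the labels. On 7 chromosomes the 0 h Pol II list ended before the lists of 2 and 4 h. Those ends held 29 broad clusters, and 1167 lay elsewhere. Genes are not named, because the gene table at hand is on another genome build than the files' mm8. For the same reason the labelled cell type was not checked against marker genes.

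The broad clusters had a median width of 7324 bp, with 10% under 6195.5 bp, 10% over 10414.5 bp and the widest at 20801 bp. Their overlap count, also measured in the library that chose them, had a median of 201 and ran from 11 to 301. Clusters under 6000 bp without H3K27me3, of which there were 14465, had a median count of 95. Only 61 broad clusters (5.10%) had a count under 50, against 6132 (42.4%) of those narrower clusters. The broad set therefore held mainly tall clusters. A set of narrower clusters of equal overlap count serves as the comparison where equal count is named. Other values for narrower clusters in these Results were not weighted, so they also carry the difference in overlap count. For it, the narrower clusters were weighted so that each overlap count made up the same share as among the broad ones. Those weighted clusters had a median width of 3563 bp.

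Broad clusters lay on every chromosome with a cluster list, and their share differed between chromosomes. They made up 7.98% of the clusters of chromosome 11 (132 of 1654) and 7.87% of those of chromosome 7 (110 of 1398), against 1.16% of those of chromosome X (7 of 604). Another broad cluster lay within 100 kb of 398 of them (33.3%) and within 10 kb of 85 (7.11%). The lists also hold clusters that abut: 270 clusters of untreated cells began under 100 bp after the end of the one before, so some broad stretches are listed in pieces.

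The width threshold cuts a continuous range. The narrowest broad clusters were 118819724 to 118825723 on chromosome 5 and 99352767 to 99358766 on chromosome 7 (both 6000 bp) and 81850374 to 81856380 on chromosome 11 (6007 bp). They held 1, 4 and 4 Pol II positions at 0 h and 1, 0 and 3 Jmjd3 positions. The closest clusters left out were 79369762 to 79375754 on chromosome 15 (5993 bp), 87495160 to 87501149 on chromosome 6 (5990 bp) and 79516554 to 79522542 on chromosome 15 (5989 bp). They held 1, 5 and 3 Pol II positions at 0 h and 1, 0 and 0 of Jmjd3. The values on either side of the threshold overlapped. Coordinates are on mm8 throughout.

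Beyond the absence of H3K27me3 that defined them, the broad clusters lay a median of 40.4 kb from the nearest H3K27me3 position of either time. For narrower clusters without the mark the median was 35.5 kb. H3K27me3 came within 10 kb of 12.3% (10.5 to 14.3) of the broad and 21.6% (20.98 to 22.3) of the narrower clusters. The share farther than 100 kb was similar, at 20.9% (18.6 to 23.3) and 21.7% (21.01 to 22.4).

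After 4 h of stimulation, 1184 of the 1196 broad clusters (98.997%, 98.3 to 99.5) overlapped a listed H3K4me3 cluster, while 13.1% of all clusters of untreated cells were not listed at 4 h. The summed width of the overlapping 4 h clusters was a median of 0.933 of the 0 h width (order-statistic 95% interval 0.9198 to 0.95002). It was 0.977 (0.972 to 0.982) for the narrower clusters and 0.979 for those of equal overlap count. Of the broad clusters, 417 (34.9%, 32.2 to 37.6) were wider at 4 h, against 40.5% of all clusters. Those at least 500 bp wider numbered 272 (22.7%, 20.4 to 25.2), with 20.1% of all clusters. Those at least 500 bp narrower numbered 603 (50.4%, 47.5 to 53.3), with 22.2% of all clusters. In these shares, clusters not listed at 4 h count as neither wider nor narrower. A change of 500 bp is also a smaller part of a broad cluster, since the median 0 h width over all clusters was 2808 bp. As ratios of 4 h to 0 h width in listed clusters, the quartiles were closer. They were 0.807 and 1.06 in broad clusters, and 0.837 and 1.17 over all clusters. The 4 h width was at least 6000 bp in 833 (69.6%).

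The direction of the median depended on the time at which width chose the clusters. Clusters chosen by the same rule at 4 h (1182 clusters) were a median of 1.06 times as wide at 4 h as at 0 h, and 61.6% (58.7 to 64.4) were wider. The 833 clusters of at least 6000 bp at both times had a median ratio of 1.000 (0.990 to 1.01), and 50.1% (46.6 to 53.5) were wider. No general narrowing or widening of broad clusters is thus shown. The spread among them was large: the ratio of 4 h to 0 h width was under 0.662 in 10% and over 1.22 in 10%. Among the 1071 broad clusters matched by 1 cluster at 4 h, both edges lay further in for 39.5% (36.6 to 42.5), both further out for 16.6% (14.4 to 18.99), and 43.9% (40.9 to 46.9) did neither. Over all clusters so matched, the shares were 28.7%, 22.3% and 49.0%. In broad clusters with H3K27me3 they were 35.8%, 16.3% and 48.0%. The overlap count hardly moved, with a median 4 h to 0 h ratio of 1.000 (0.991 to 1.01).

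**Figure D1:**
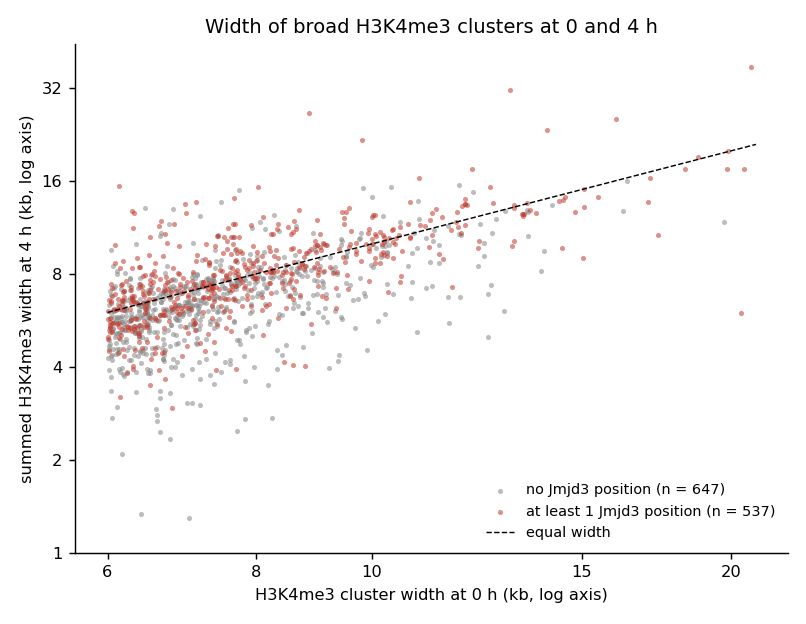
Width of each broad H3K4me3 cluster at 0 h (x axis, kb, log scale) against the summed width of the 4 h clusters overlapping it (y axis, kb, log scale), for the 1184 clusters listed at both times. Red points hold at least 1 Jmjd3 position at 2 h and grey points hold none. Points with Jmjd3 lie on both sides of the line of equal width, and most points without it lie below.

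The widest cluster, 76015151 to 76035951 on chromosome 15, measured 20801 bp at 0 h and lay within a 4 h cluster of 37509 bp. It shows why pieces matter: at 0 h it abutted another cluster, and the clusters that the 4 h one spanned summed to 36707 bp already in untreated cells. Next came 63248331 to 63268842 on chromosome 13, with 20512 bp at 0 h and 17419 bp at 4 h. The third, 55887468 to 55907865 on chromosome 9, went from 20398 to 5975 bp. The fourth, 56959151 to 56979032 on chromosome 17, was 19882 bp and then 19985 bp, and the fifth, 73906520 to 73926379 on chromosome 14, was 19860 bp and then 17512 bp. Over the 10 widest, the ratio of 4 h to 0 h width ran from 0.293 to 1.80, so the widest clusters did not share 1 course.

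The 5 largest ratios of 4 h to 0 h width were between 2.03 and 2.99. In 4 of these 5 the 4 h cluster also took in other clusters of untreated cells. The exception was 5837702 to 5850758 on chromosome 19, which went from 13057 to 31536 bp with no other 0 h cluster in the added stretch. It held 6 Jmjd3 positions, and its tallest Pol II position had an overlap count of 331 at 0 h, 373 at 2 h and 393 at 4 h. Such counts are not scaled between libraries. In broad clusters with a listed position, the median tallest Pol II count was 63, 133 and 114 at 0, 2 and 4 h. Across all broad clusters at least 500 bp wider at 4 h, 70 of 272 (25.7%, 20.6 to 31.4) were joined in this way to another 0 h cluster. Leaving out every joined cluster, the median ratio was 0.919 (0.907 to 0.931) in 1105 clusters. The 5 smallest ratios ran from 0.184 to 0.331. Of these, 163696907 to 163703934 on chromosome 2 and 124277954 to 124284358 on chromosome 5 had overlap counts of 22 and 16 at 0 h. The chromosome 9 cluster above (count 162) and 29899470 to 29907170 on chromosome 5 (count 205, from 7701 to 2476 bp) were tall.

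The 12 broad clusters not listed at 4 h were all low, with overlap counts of 11 to 22, and none held a Jmjd3 position. Several held Pol II: 119541453 to 119547898 on chromosome 10 had 6 positions at each of 0, 2 and 4 h. The 7372 bp cluster at 22644004 to 22651375 on chromosome 2 had 6 at 0 h and none at 2 or 4 h.

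Pol II was listed in nearly all broad clusters. At 0 h at least 1 position lay in 96.5% (95.3 to 97.5) of them, at 2 h in 96.7% (95.6 to 97.7) and at 4 h in 97.7% (96.7 to 98.5). Narrower clusters of equal overlap count came close, with 92.4%, 94.7% and 94.3%. Over all clusters the shares were 60.2%, 60.8% and 60.5%. Several positions per cluster were usual, and 84.8% (82.6 to 86.8) held 2 or more at 0 h. The mean was 3.95 positions at 0 h (exact Poisson 95% interval 3.84 to 4.06). At 2 h it was 3.53 (3.42 to 3.64) and at 4 h 3.70 (3.596 to 3.81), and the maxima were 19, 17 and 17. The 29 clusters at the chromosome ends had no listed position at 0 h because that list stopped, which lowers the 0 h share and mean. Outside those ends the means were 4.05, 3.53 and 3.71 at 0, 2 and 4 h. Of the 1167 clusters where all lists ran, 1121 (96.1%) held Pol II at all times. Only 8 held none at any time, with overlap counts of 11 to 138.

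Wider clusters hold more positions by length alone, so density was compared too. Broad clusters held 0.496 Pol II positions per kb at 0 h, 0.443 at 2 h and 0.465 at 4 h. Narrower clusters of equal overlap count held 0.345, 0.351 and 0.344 per kb, which left the broad ones 1.44, 1.26 and 1.35 times as dense. The difference at 2 h, 0.0917 positions per kb, was 0.0434 with positions at or above the median count of their own list, 0.0575 with a width threshold of 5000 bp and 0.153 in clusters chosen at 4 h. At least 2 positions at 0 h were found in 22.8% of the narrower clusters of equal count, which was 61.95 points lower (Wald 95% interval 59.7 to 64.3). Positions within a list are at least 501 bp apart, which limits how many a narrow cluster can hold. Broad clusters also more often held a position among the tallest 10% of its list: 66.97% (64.2 to 69.6) against 40.6% at equal overlap count at 0 h, a difference of 26.4 points (Wald, 23.4 to 29.3). At 2 h the difference was 20.4 points (17.4 to 23.3) and at 4 h 23.8 points (20.8 to 26.8). A longer cluster has more chances to hold such a position.

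Among the broad clusters themselves, density was higher in wider ones. At 0 h it was 0.416 positions per kb in the 479 clusters of 6000 to 6999 bp, 0.477 in the 305 of 7000 to 7999 bp and 0.537 in the 253 of 8000 to 9999 bp. It was 0.558 in the 99 of 10000 to 11999 bp and 0.640 in the 60 of 12000 bp or more. The same order held at 2 h, from 0.391 to 0.558 per kb. The 61 clusters with an overlap count under 50 were sparser, with 0.331 positions per kb at 0 h and 0.287 at 2 h, but were not without Pol II.

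**Figure D2:**
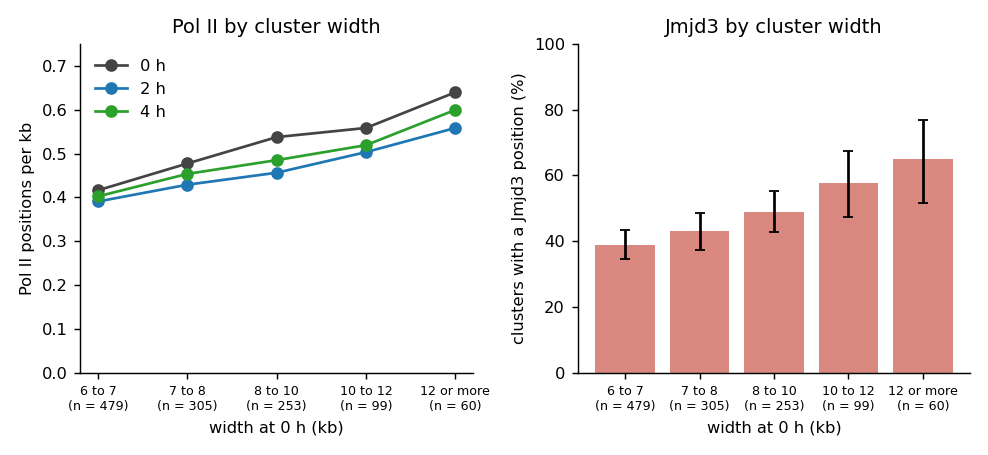
Left, Pol II positions per kb (y axis) at 0, 2 and 4 h in broad clusters grouped by width at 0 h (x axis, kb, number of clusters below); from the narrowest to the widest class density goes from 0.416 to 0.640 per kb at 0 h. Right, the share of the same clusters with a Jmjd3 position (y axis, %), with exact 95% binomial intervals as bars; it goes from 38.8% to 65.0%, while Jmjd3 positions per kb, not drawn, were 0.0771 and 0.0871 in the narrowest and widest class.

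More broad clusters had fewer Pol II positions after stimulation than had more. At 2 h, 528 (44.1%, 41.3 to 47.0) had fewer than at 0 h and 338 (28.3%, 25.7 to 30.9) had more; over all clusters these shares were 15.5% and 14.7%. At 4 h, 503 (42.1%, 39.2 to 44.9) had fewer and 346 (28.9%, 26.4 to 31.6) more, against 14.9% and 13.4% of all clusters. Narrower clusters of equal overlap count had fewer positions in 13.1% and more in 14.6% at 2 h. Broad clusters held more positions that could change, and the part this plays in the larger shares was not tested. From 2 to 4 h, 385 broad clusters (32.2%, 29.5 to 34.9) had more positions and 315 (26.3%, 23.9 to 28.9) fewer, against 9.93% and 10.1% of all clusters. Fewer positions at both 2 and 4 h were seen in 404 broad clusters (33.8%) and more at both in 232 (19.4%), against 11.8% and 9.35% of all clusters. All these shares include the chromosome ends, where the 0 h list held no position in broad clusters. Outside those ends, 45.2% of broad clusters had fewer and 26.6% more at 2 h, against 15.9% and 13.5% of all clusters. At 4 h 43.1% had fewer and 27.3% more, against 15.3% and 12.3%.

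The excess of losses depended on how clusters and positions were taken. With Pol II positions of an overlap count of at least 11 in every list, 36.6% had fewer and 33.1% more at 2 h. At 4 h the direction turned, with 30.4% fewer and 35.9% more. With positions at or above the median count of their own list, 35.5% had fewer and 28.8% more at 2 h, and 34.9% and 29.2% at 4 h. In clusters chosen at 4 h in place of 0 h it turned again: the mean was 3.72 positions at 0 h, 4.13 at 2 h and 4.15 at 4 h, and 34.3% had fewer and 41.6% more at 2 h. In the 833 clusters broad at both times, means were 4.48, 4.12 and 4.30. The net change is therefore given as a value of this choice, not as a fall in Pol II over broad clusters in general.

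Single clusters changed far more than the mean. Outside the 7 chromosome ends, 54 broad clusters (4.63%) had at least 5 fewer positions at 2 h than at 0 h and 12 (1.03%) had at least 5 more. Such changes were not counted over all clusters. A loss of 5 needs at least 5 positions at 0 h, which few other clusters held. With the ends included, 5, 6 and 7 or more were held by 12.6%, 10.9% and 13.4% of broad clusters, against 0.952%, 0.710% and 0.850% of all. The largest gain was at 54793575 to 54809058 on chromosome 11 (15484 bp), with 2 Pol II positions at 0 h, 12 at 2 h and 10 at 4 h. Its tallest position had an unscaled overlap count of 31, 181 and 67, where the medians over broad clusters were 63, 133 and 114. It held 2 Jmjd3 positions, and its H3K4me3 width was 0.915 of the 0 h width at 4 h. H3K4me3 thus spanned the stretch in untreated cells, where few Pol II positions were listed. The next gains were 29838791 to 29847547 on chromosome 7 (1, 7 and 2 positions, with a low H3K4me3 count of 16) and the narrowed chromosome 9 cluster (7, 12 and 13). They were followed by 123394443 to 123407822 on chromosome 5 (5, 10 and 9) and 166745531 to 166757668 on chromosome 2 (6, 11 and 11). By 4 h, 68231034 to 68241023 on chromosome 14 had gone from 1 position at both 0 and 2 h to 8.

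The largest loss was at 142189814 to 142206189 on chromosome 7 (16376 bp), with 13 Pol II positions at 0 h, 1 at 2 h and 7 at 4 h. Its tallest position had a count of 152, 56 and 82, while its H3K4me3 width stayed at 0.978 of the 0 h width. On chromosome 11, 114738619 to 114751129 had 10 positions at 0 h, none at 2 h and 1 at 4 h, and its H3K4me3 went from 12511 to 5003 bp. A second cluster 60.5 kb away, 114811677 to 114821524, had 8, 0 and 2 positions. On chromosome 13, 56618388 to 56627315 had 9, 0 and 1. On chromosome X, 102345047 to 102355845 had 8, 0 and 6, so Pol II was mostly listed again by 4 h. None of these 5 held a Jmjd3 position. In all, 11 broad clusters (0.943%) outside the chromosome ends had at least 5 positions at 0 h and none at 2 h. This too was not counted over all clusters.

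**Figure D3:**
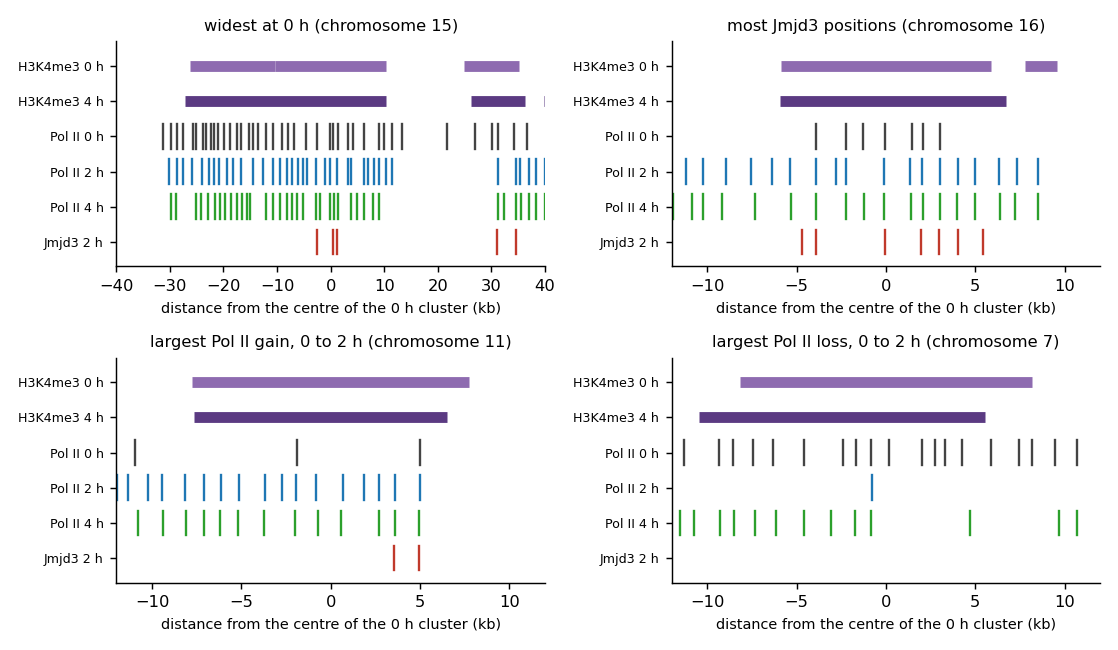
Listed H3K4me3 clusters (bars) and Pol II and Jmjd3 positions (ticks) around 4 broad clusters, plotted by distance from the centre of the 0 h cluster (x axis, kb). The widest cluster abuts a second 0 h cluster on its left; the chromosome 11 cluster goes from 2 to 12 Pol II positions between 0 and 2 h, and the chromosome 7 cluster from 13 to 1.

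Within the broad clusters, Pol II positions were spread over most of the length. Density at 0 h stayed between 0.526 and 0.570 per kb from the centre to 80% of the way to the edge, and was 0.287 per kb in the outermost 10%. In narrower clusters it fell from 0.544 per kb at the centre to 0.0699 in the outermost 10%. The tallest Pol II position was not concentrated at the centre, and whether it favoured any part of the cluster was not tested. At 0 h its median distance to the nearer edge was 1961 bp (interquartile range 1360 to 2759), or 26.4% of the cluster's width. In narrower clusters this was 1063 bp, or 35.5% of the width. The tallest position of 0 h lay within 500 bp of that of 2 h in 82.8% of 1125 broad clusters, and in 93.5% of 8900 narrower ones.

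In the 1167 broad clusters outside the chromosome ends, of the 4721 Pol II positions at 0 h, 67.8% (66.4 to 69.1) had a position within 500 bp at 2 h and 71.6% (70.3 to 72.9) at 4 h. For narrower clusters these shares were 75.9% (75.2 to 76.7) and 77.8% (77.1 to 78.5). Positions without a partner at 2 h were low, with a median overlap count of 15 against 34 for those with one. They lay in the outer 1 kb in 24.1% of cases, against 13.5%. Of the 4123 positions at 2 h, 940 had no partner at 0 h, and these too were low, with a median of 20.5 against 54.

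**Figure D4:**
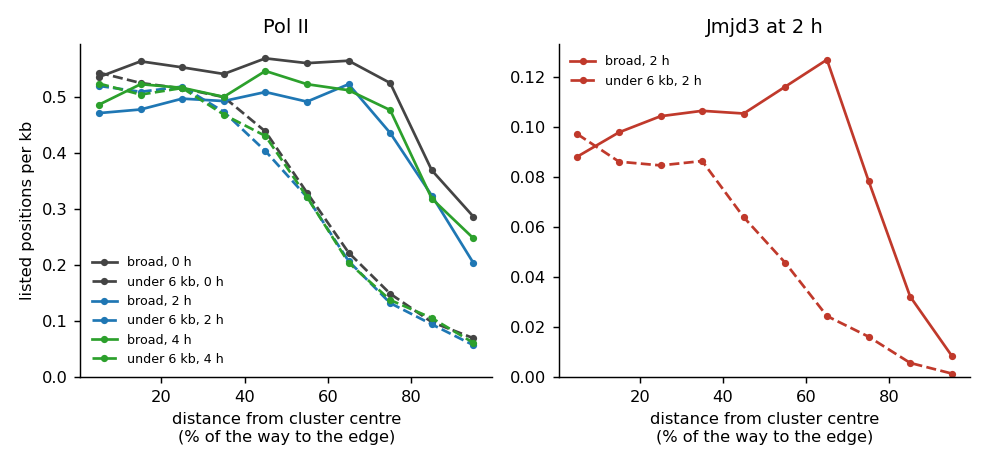
Listed positions per kb (y axis) against distance from the cluster centre (x axis, % of the way to the edge) for Pol II at 0, 2 and 4 h (left) and Jmjd3 at 2 h (right). Solid lines are broad clusters and dashed lines clusters under 6 kb without H3K27me3, both outside the 7 chromosome ends. Broad Pol II profiles stay near level over most of the length and narrower ones fall away from the centre. Broad Jmjd3 goes from 0.0881 per kb at the centre to 0.127 at 60 to 70% of the way and 0.00860 at the edge. Narrower Jmjd3 goes from 0.0971 to 0.0245 and 0.00150 at the same places.

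Jmjd3 at 2 h lay in 537 broad clusters (44.9%, 42.1 to 47.8), against 13.6% of all clusters of untreated cells. At equal overlap count, 21.2% of the narrower clusters held it, a difference of 23.7 percentage points (Wald, 20.7 to 26.7). Broad clusters were longer, and per kb they held 0.0858 Jmjd3 positions and narrower clusters of equal count 0.0654, a ratio of 1.31. Together the broad clusters held 817 Jmjd3 positions, 18.6% of the list. A single position was found in 371 clusters, 2 in 96 and 3 or more in 70. The share with Jmjd3 was higher in wider clusters, from 38.8% (34.4 to 43.4) at 6000 to 6999 bp to 65.0% (51.6 to 76.9) at 12000 bp or more. Per kb, the 5 width classes held 0.0771, 0.0837, 0.0862, 0.113 and 0.0871 Jmjd3 positions, so the widest class was not the densest. In the 61 clusters with an H3K4me3 count under 50, the share with Jmjd3 was 4.92% (1.03 to 13.7). Jmjd3 positions in broad clusters were somewhat taller than elsewhere, with a median overlap count of 11 against 10, and 23.1% stood at the lowest listed count against 34.5%.

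Jmjd3 seldom lay at the rim of a broad cluster. Only 6.09% of its 804 positions outside the chromosome ends were in the outer 1 kb, against 15.7% of Pol II positions at 2 h. A Pol II position of 2 h lay within 500 bp of 88.2% (85.7 to 90.3) of the Jmjd3 positions, and one of 0 h within 500 bp of 85.1% (82.4 to 87.5). The tallest Jmjd3 position was a median of 115 bp from the tallest Pol II position of 2 h. The most Jmjd3 positions, 7, were in 23894482 to 23906274 on chromosome 16, where Pol II positions numbered 7, 10 and 10 and H3K4me3 went from 11793 to 12639 bp. The chromosome 19 cluster that widened without joining, and 53611619 to 53619954 on chromosome 11, each held 6. In the latter the tallest Pol II position had a count of 101 at 0 h, 340 at 2 h and 320 at 4 h, and H3K4me3 went from 8336 to 11590 bp. With 5 each came 28078446 to 28093517 on chromosome 7 and 97470551 to 97482847 on chromosome 11.

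The broad clusters with and without Jmjd3 took different courses after stimulation. This comparison was chosen with the values known, Jmjd3 was not part of the rule that chose the clusters, and its list comes from its own library. The grouping is still not independent of Pol II. A Pol II position lay within 500 bp of 88.2% of the Jmjd3 positions at 2 h and of 85.1% at 0 h. The part this plays in the differences was not tested. In the 659 clusters without Jmjd3, the mean number of Pol II positions was 3.52, 2.58 and 2.88 at 0, 2 and 4 h. In the 537 with Jmjd3 it was 4.47, 4.70 and 4.72. The mean change from 0 to 2 h was -0.947 and 0.231 positions, a difference of 1.18 (normal 95% interval over clusters 0.937 to 1.42), and at 4 h the difference was 0.898 (0.674 to 1.12). Without Jmjd3, 51.9% (48.0 to 55.8) had fewer positions at 2 h and 18.8% (15.9 to 22.0) more; with it, 34.6% (30.6 to 38.8) had fewer and 39.9% (35.7 to 44.1) more.

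Mean Pol II positions were also higher with more Jmjd3 positions, and so was the median width at 0 h, which was 7132, 7371, 7847 and 9143 bp with 0, 1, 2 and 3 or more. With 1 position the mean stayed at 4.12 and 4.13 at 0 and 2 h, with 2 it went from 4.89 to 5.57, and with 3 or more from 5.73 to 6.54. The shares of clusters did not keep this order: more positions at 2 h were seen in 18.8%, 34.0%, 55.2% and 50%, and at 4 h in 20.9%, 35.3%, 53.1% and 37.1%. The median ratio of 4 h to 0 h width was 0.892 (0.874 to 0.906) with no Jmjd3 position, 0.975 (0.951 to 0.995) with 1, 1.00 (0.967 to 1.03) with 2 and 1.10 (1.06 to 1.19) with 3 or more. The share wider at 4 h was 23.4% (20.2 to 26.8) without and 48.98% (44.7 to 53.3) with Jmjd3, a difference of 25.6 points (Wald, 20.3 to 30.9). Neighbouring counts of 1 and 2 positions had overlapping intervals for width.

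**Figure D5:**
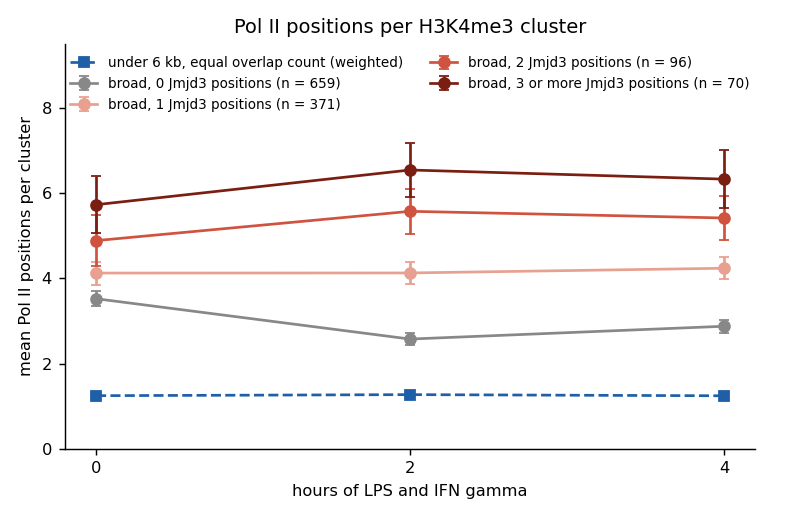
Mean Pol II positions per cluster (y axis) at 0, 2 and 4 h (x axis) in broad clusters by their number of Jmjd3 positions, with bars for the normal 95% interval of the mean over clusters, and in narrower clusters weighted to equal overlap count (dashed, no bars). Clusters without Jmjd3 go from 3.52 to 2.58 between 0 and 2 h, and those with 3 or more from 5.73 to 6.54.

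Clusters with Jmjd3 were wider (median 7612 against 7132 bp) and held more Pol II at 0 h, so the comparison was repeated within classes, outside the chromosome ends. In the 5 width classes the difference in change from 0 to 2 h was 0.638, 0.874, 1.95, 3.03 and 3.497 positions, from the narrowest to the widest class, and no interval included 0. In classes of 0 h Pol II positions it ran from 0.802 (0.314 to 1.29) with 2 positions to 3.89 (3.15 to 4.64) with 7 or more. In those 98 clusters with 7 or more positions and Jmjd3 the mean change was -0.898, against -4.79 in the 62 without. By H3K4me3 overlap count in 4 classes the difference was 0.899 to 1.67. It was 1.54 (1.27 to 1.80) in clusters chosen at 4 h. The choice of time that turned the mean change therefore did not turn this difference.

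Stretches that H3K4me3 left or entered differed in Pol II. These values cover the 1156 broad clusters that were listed at 4 h and lay outside the chromosome ends. Parts of them not covered at 4 h summed to 1284 kb in 978 clusters. They held 0.340 Pol II positions per kb at 0 h (Poisson 95% interval 0.308 to 0.373), and 0.181 (0.158 to 0.205) and 0.226 (0.201 to 0.253) at 2 and 4 h. Jmjd3 had 3 positions there. Parts covered at both times, 7943 kb, held 0.534 (0.518 to 0.550), 0.486 (0.471 to 0.502) and 0.505 (0.489 to 0.521). Parts newly joined at 4 h, 801 kb, held 0.409 (0.366 to 0.456), 0.454 (0.409 to 0.504) and 0.459 (0.414 to 0.509), with intervals that overlap between times. Of that length, 29.3% was already covered by other clusters of untreated cells. Since positions were counted within the 0 h edges, those in newly joined parts are not in the counts per cluster above.

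The difference by Jmjd3 was also seen outside the broad clusters. In narrower clusters without H3K27me3 the mean change from 0 to 2 h was 0.257 positions with Jmjd3 (1815 clusters) and -0.0883 without (12253), from means of 1.41 and 0.901 at 0 h. The share wider at 4 h was 56.03% and 35.4%. Clusters not listed at 4 h count as not wider in these shares, and 83.0% of all narrower clusters were listed. Among those listed, the median ratio of 4 h to 0 h width was 1.04 with Jmjd3 and 0.967 without. The 292 broad clusters that did overlap H3K27me3 had a median overlap count of 131.5 and fewer Pol II positions, with means of 2.33, 2.27 and 2.18. Jmjd3 lay in 31.8% (26.5 to 37.5) of them, at 0.0991 positions per kb. That was above the 0.0858 of broad clusters without the mark and 1.74 times the density of narrower clusters of equal count. A few clusters weigh on this density: the most in 1 cluster was 23 of the 227 positions, and 5 clusters held 7 or more. In broad clusters with H3K27me3, the Pol II change with Jmjd3 minus that without was 0.221 positions at 2 h (-0.223 to 0.664). At 4 h it was -0.0103 (-0.397 to 0.377), and both intervals include 0. These values cover 90 such clusters with Jmjd3 and 195 without, outside the chromosome ends. More positions at 2 h were seen in 40% with and 14.9% without, a difference of 25.1 points (Wald, 13.8 to 36.4). Fewer were seen in 31.1% and 22.1%, a difference of 9.06 points (-2.14 to 20.3). The share wider at 4 h was 48.9% and 35.4%, a difference of 13.5 points (1.19 to 25.8).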

How the data were processed

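Each of the 8 libraries gave 1 deposited peak list. Its only value, per the file headers, is a whole-number overlap count per peak, a signal that the authors gave unscaled as far as headers and labels say. The submitters' processing notes name mm8 as the genome build. How reads were aligned, with which program and threshold peaks were called, and against which control, is not given in the sources used here. Fragments of about 200 to 300 bp from 500000000 cells (Jmjd3) or 100000000 cells (all others) were sequenced, per the labels.

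A position was counted when it lay from a cluster's start to its end. Width at 4 h is the summed width of overlapping 4 h clusters. Narrower clusters were weighted to the broad clusters' exact overlap counts; "equal count" was read in that sense. The 0 h Pol II list was taken to stop early where its last position lay over 1 Mb before those of both later lists. Regions named are the 10 widest, the 5 largest and 5 smallest width ratios, the 5 with most Jmjd3 positions, the 5 largest Pol II gains and losses to 2 and 4 h, those not listed at 4 h and those at the threshold; where fewer are printed, they head the order. The clusters and comparisons were chosen with earlier results of these data known. Counts were tested on simulated lists and were equal to those of bedtools 2.31.1 for all 21418 clusters. The work used scipy 1.17.1, pandas 2.3.3 and numpy 2.4.6 under Python 3.11.15, and matplotlib 3.10.9 drew the plots.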

Additional observations from a re-analysis of the deposited data

How the results depend on the processing

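No paired analysis was possible because each group holds 1 library, and no replicate was left out for the same reason. Of 173 values under other settings, 103 stayed within the counting interval of the main value (for the number of clusters, within 1.5 times), 68 moved by more, and the width ratio passed to the other side of 1 in 2. Which was larger, the share with more or with fewer Pol II positions, also turned under a count of at least 11 (4 h) and in clusters chosen at 4 h. Under the settings run for each, broad clusters without H3K27me3 more often held a Jmjd3 position than narrower ones. They also held more Pol II per kb at 2 h, and their change in Pol II positions was higher with Jmjd3 than without. Causes of the moves were not tested. Settings chosen after the data were seen were an overlap count of at least 50, clusters broad at both times, Pol II at or above its list's median, linked widths, clusters chosen at 4 h for other measures than the width ratio and share wider, and all settings for shares with fewer positions and for the comparison by Jmjd3.

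With a threshold of 5000 bp there were 2199 clusters. Their Pol II means were 3.05, 2.79 and 2.88 at 0, 2 and 4 h, with 37.9% fewer at 2 h, 37.4% fewer and 26.1% more at 4 h. Jmjd3 lay in 38.4%, 18.9 points above narrower clusters of equal count, and Pol II was 0.0575 per kb denser at 2 h. The Pol II change to 2 h differed by 0.914 with Jmjd3. With 8000 bp there were 412, with Pol II means of 5.71, 4.95 and 5.24, and 50.7% and 47.8% fewer at 2 and 4 h. Jmjd3 lay in 53.4%, 30.3 points above, the density difference was 0.129 per kb, and the differences with Jmjd3 were 2.21 and 1.62 positions at 2 and 4 h.

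Chosen at 4 h, clusters had a width ratio of 1.057, the opposite direction, and 61.6% were wider. Their Pol II means were 3.72, 4.13 and 4.15, with 41.6% more and 34.3% fewer at 2 h and 41.1% more and 32.7% fewer at 4 h. Jmjd3 lay in 55.9%, 35.9 points above, and Pol II density differed by 0.153 per kb. The differences with Jmjd3 were 1.54 and 1.16 positions and 17.1 points in the share wider. Clusters broad at both times had a ratio of 1.0002 (50.1% wider) and Pol II means of 4.48, 4.12 and 4.30. More positions at 2 and 4 h were seen in 31.9% and 32.2%. Jmjd3 lay in 52.9%, 31.8 points above narrower clusters of equal count, with a density difference of 0.137 per kb.

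Pol II positions of a count of at least 11 gave means of 3.52 and 3.39 at 0 and 2 h, with 33.1% more and 36.6% fewer at 2 h and 35.9% more and 30.4% fewer at 4 h. Positions at or above their list's median gave 3.003, 2.79 and 2.91, with 35.5% and 34.9% fewer at 2 and 4 h and a density difference of 0.0434 per kb at 2 h. Jmjd3 above its lowest count lay in 35.8%. Without the condition on H3K27me3, Pol II means were 3.63, 3.28 and 3.41. Unweighted, the Jmjd3 difference was 32.1 points and the density difference 0.120 per kb. The widest single 4 h cluster gave a ratio of 0.907 (31.9% wider), and linked clusters gave 31.5% wider. Length within the 0 h edges gave 0.904 and, by construction, 0% wider.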
